A study of Mus musculus with 4 samples.

Results

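Amino acid transporters were described here as the genes of 7 solute carrier families, Slc1a, Slc3a, Slc6a, Slc7a, Slc36a, Slc38a and Slc43a, chosen by symbol without Slc7a2 and Slc7a11. The platform annotation held 61 such genes among 18193 genes measured, 58 of them transporter family members and 3 transcripts named for the opposite strand of a transporter gene. Expression was measured in mouse macrophages drawn into the peritoneal cavity by thioglycolate, an irritant, and kept for 18 hours on slides. The 4 samples were wild type (WT) cells untreated, WT cells with IL-4 (interleukin-4, the cytokine of alternative macrophage activation), cells labelled Dap12-KO untreated and cells labelled Dap12-KO with IL-4. DAP12, encoded by Tyrobp, is a signalling adaptor for macrophage receptors. The labels do not give the allele behind the knockout, the IL-4 dose, or the strain, age and number of mice. Every group was 1 array, so a difference of 2 arrays stands as a value without any test, and the number of arrays limits its precision.

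Cells take up amino acids through carriers that differ in substrate and drive. The Slc7a light chains LAT1 and LAT2 exchange large neutral amino acids and reach the membrane only in a pair with the heavy chain CD98 (Slc3a2), while ASCT2 (Slc1a5) and the sodium-coupled Slc38a carriers bring in glutamine. Others sit on the lysosome, where they release amino acids from digested protein and take part in signalling to mTORC1, the kinase complex that couples amino acid supply to growth. Macrophages digest large amounts of engulfed protein, and many plasma membrane carriers are known targets of ATF4, the transcription factor of the amino acid response.

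One array stood apart. The middle 50% of deposited log2 values spanned 2.54 units on the array of treated cells labelled Dap12-KO, against 3.19 to 3.25 on the other arrays, so that dim probe sets read higher and bright ones lower there. The median gene differed by −0.40 between both arrays labelled Dap12-KO and by −0.39 between both arrays with IL-4. It differed by −0.03 in WT with IL-4 and by 0.03 between the untreated arrays. After cyclic loess, which removes differences between arrays that follow the level, these medians were 0.09, 0.13, 0.01 and 0.09, and differences on the narrower array are given with their value after cyclic loess where the text turns on them. Tyrobp read 14.39 in WT untreated, 14.13 in WT with IL-4, and 14.03 and 13.27 on the untreated and IL-4 arrays labelled Dap12-KO, so this signal does not bear out the label. Whether its probes lie in the deleted part is not known, and each direction between genotypes rests on the labels alone. All 7 macrophage markers examined, among them Adgre1, Csf1r and Lyz2, lay above the median of all values on all 4 arrays.

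Of the 61 genes, 36 reached the median of all values, 6.39, on at least 1 array, which is 59.0% against 70.2% of all genes. This median served as the level floor. Only 26 members reached it on all 4 arrays. Counted array by array, 28 members reached it in WT untreated, 27 in WT with IL-4, 29 on the Dap12-KO array without treatment and 35 on the narrower array. For 7 members, the glutamate carriers Slc1a1, Slc1a2, Slc1a3 and Slc1a7, the GABA carrier Slc6a13, the heavy chain Slc3a1 and Slc36a1os, the narrower array was the only one above the floor. Among all 1483 genes above the floor on a single array, 87.5% were above it on that same array. These 7 members therefore had to read higher there than elsewhere, and counts of differences that hold them are given without them too.

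By family, 7 of 9 Slc38a genes, 7 of 14 Slc7a, 7 of 21 Slc6a, 6 of 7 Slc1a, all 5 Slc36a, 2 of 3 Slc43a and both Slc3a genes reached the floor. By the mean over the 4 arrays 29 members did, with only 2 of the Slc1a genes, the neutral carriers Slc1a4 and Slc1a5. The 25 members below the floor everywhere lay between 4.48 and 6.37. They were Slc1a6, Slc6a3, Slc6a4, Slc6a5, Slc6a11, Slc6a12, Slc6a14, Slc6a15, Slc6a16, Slc6a18, Slc6a19, Slc6a19os, Slc6a20a, Slc6a20b, Slc6a21, Slc7a3, Slc7a9, Slc7a10, Slc7a12, Slc7a13, Slc7a14, Slc7a15, Slc38a4, Slc38a5 and Slc43a1. Many of them are known as carriers of neurons, kidney or gut, such as the serotonin carrier Slc6a4 and the renal cystine light chain Slc7a9. No detection call stands behind these readings.

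**Figure D1:**
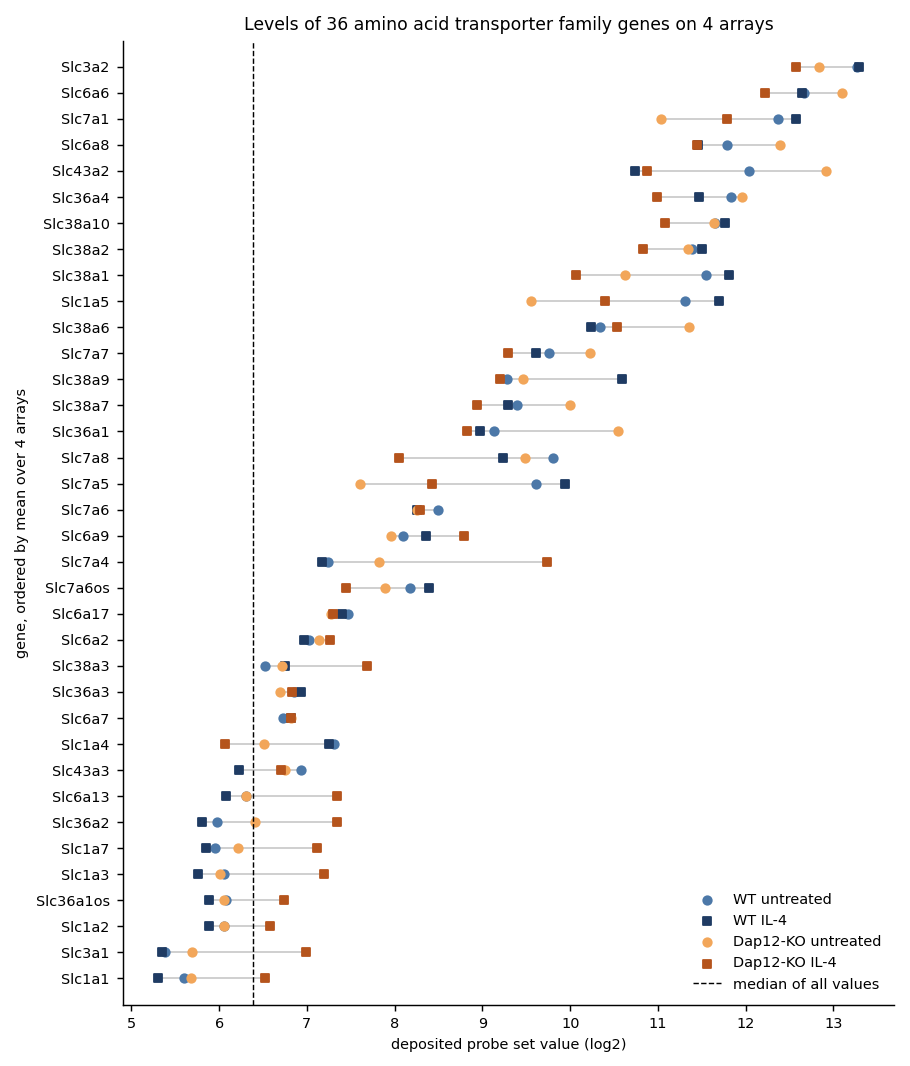
Deposited log2 value (x axis) of the 36 genes that reached the median of all values, 6.39 (dashed line), ordered by their mean over 4 arrays; each point is 1 array, coloured by group as labelled. Slc7a5, Slc1a5 and Slc7a1 read lowest where untreated cells labelled Dap12-KO were measured, and of the 8 lowest genes 7, all but Slc36a2, cross the line only on the narrower array, that of treated cells labelled Dap12-KO. The brightness of a probe set also depends on its probes, so the order is not one of transcript amounts.

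Promoter sequence from RefSeq (GRCm38.p6) was matched for 25 of the 36 members above the floor. The others had no sequence here and were not searched for any motif. They were Slc7a5, Slc1a5, Slc38a1, Slc38a3, Slc7a4, Slc6a2, Slc6a6, Slc6a7, Slc6a8, Slc36a2 and Slc43a3. The 250 bases before each start were searched on both strands for CACGTG, the E-box core shared by MYC and by the lysosomal gene regulators TFEB and TFE3, for TGATGNAA, the core of the C/EBP-ATF element bound by ATF4, and for TTC followed by 4 bases of any kind and GAA, the spacing known for STAT6, the transcription factor of IL-4 signalling. These are shown because Slc36a1 and Slc38a7, carriers placed on the lysosome, each held the E-box close to their start, and because Slc43a2 was the member lower with IL-4 in both genotypes. Capitals mark the match, and sequences run 5′ to 3′ on the strand of the gene. The Slc36a1 stretch is chr11:55204090-55204339 (plus strand), with the match 31 to 26 bases before the start. The Slc38a7 stretch is chr8:95853492-95853741 (minus strand), with the match 34 to 29 bases before the start. For Slc43a2 only 30 bases around the match are shown, chr11:75531891-75531920 (plus strand), 211 to 202 bases before the downstream of its 2 starts.
Slc36a1: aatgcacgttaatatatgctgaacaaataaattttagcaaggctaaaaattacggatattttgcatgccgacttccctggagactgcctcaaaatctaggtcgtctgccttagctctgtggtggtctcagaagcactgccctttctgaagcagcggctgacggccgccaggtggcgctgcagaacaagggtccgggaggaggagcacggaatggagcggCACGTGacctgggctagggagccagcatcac
Slc38a7: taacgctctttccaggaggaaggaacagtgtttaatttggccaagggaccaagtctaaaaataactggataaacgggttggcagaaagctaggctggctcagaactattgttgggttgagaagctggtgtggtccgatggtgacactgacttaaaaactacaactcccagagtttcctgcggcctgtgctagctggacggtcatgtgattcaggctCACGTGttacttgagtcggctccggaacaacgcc
Slc43a2: cgggatccgcTTCTATGGAAacgggctaat

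CACGTG was found for 3 of the 25 members, Slc36a1, Slc38a7 and the dim Slc1a7, and for 6.86% of the 27025 genes with such a window. TGATGNAA was found for 1 of the 25, the cationic and neutral light chain Slc7a7, and for 3.91% of genes. The STAT6 spacing was found for 2, Slc43a2 and Slc1a7, and for 6.76% of genes. By window, the shares were 6.02%, 3.45% and 5.85% of 32851. The matches describe letters in these windows and say nothing of a factor bound there.

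Between the untreated arrays, 3 plasma membrane carriers, Slc7a5 for large neutral amino acids, Slc1a5 for glutamine and Slc7a1 for arginine, read lower on the array labelled Dap12-KO. The lysosomal carrier Slc36a1 and Slc38a6, of the glutamine carrier family, read higher. Of the 36 members, 3 were at least 2-fold lower (8.33%, against 3.41% of all genes tested) and 2 at least 2-fold higher (5.56% against 3.12%). The same 5 genes were past 2-fold after cyclic loess, where 2.86% of all genes were lower and 3.64% higher. The median member differed by −0.0006 and the median gene by 0.03. Without the members above the floor on the narrower array alone, the counts were again 3 and 2, of 29, with no share of all genes computed alike.

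Slc7a5 (LAT1), the light chain that exchanges leucine for glutamine, read 9.62 in WT and 7.61 on the array labelled Dap12-KO, a 4.02-fold difference. With IL-4 it read 9.94 in WT and 8.43 on the array labelled Dap12-KO. Both arrays labelled Dap12-KO thus lay below both WT arrays. Slc3a2, the heavy chain CD98 that LAT1 needs, read 13.27 and 13.29 on the WT arrays and 12.84 and 12.58 on those labelled Dap12-KO, differences of −0.43 untreated and −0.72 with IL-4. After cyclic loess these were −0.35 and −0.21. Slc7a5 has a single probe set here, as has Slc3a2.

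Among the other light chains that are members, none was 2-fold lower between the untreated arrays, while Slc7a11, left out by the rule, was. Slc7a8 (LAT2) read 9.80 in WT and 9.49 on the array labelled Dap12-KO untreated, and 9.24 and 8.05 with IL-4. Slc7a6 and Slc7a7, light chains that exchange cationic for neutral amino acids, differed by −0.23 and 0.47 between the untreated arrays. Slc7a7 read 9.76, 9.61, 10.23 and 9.29 on the WT untreated, WT IL-4, untreated Dap12-KO and IL-4 Dap12-KO arrays.

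Slc1a5 (ASCT2), a sodium-dependent exchanger of glutamine and other small neutral amino acids, read 11.31 in WT and 9.55 on the array labelled Dap12-KO, a 3.39-fold difference. With IL-4 it read 11.70 and 10.40. Its dimmer probe set differed by −0.88 untreated and by −0.17 with IL-4. Slc7a1 (CAT1), the broadly expressed carrier of arginine and lysine, read 12.37 in WT and 11.04 on the array labelled Dap12-KO, 2.52-fold lower, and 12.57 and 11.78 with IL-4. Its 2 probe sets above the floor differed by −1.33 and −1.47 between the untreated arrays.

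Slc38a1 (SNAT1), a glutamine carrier, read 11.55 in WT and 10.62 on the array labelled Dap12-KO, short of 2-fold at −0.93, with its second probe set at −1.12. With IL-4 it read 11.81 and 10.06. Slc1a4 (ASCT1), a carrier of serine, alanine and cysteine, read 7.31 and 6.51 on those arrays and 7.25 and 6.07 with IL-4. Slc38a2 (SNAT2), the carrier best known for its induction by amino acid shortage, did not share the difference by its brightest probe set, at 11.39 and 11.34 untreated. Its dimmer probe sets disagreed, at 0.26 and −0.62 untreated. With IL-4 the brightest read 11.51 and 10.83, a difference of −0.67 that was −0.03 after cyclic loess. Slc38a10, of the same family, was as close untreated by its brightest probe set, at 11.65 and 11.64. That probe set read 11.77 and 11.08 with IL-4, where −0.69 became −0.06. Its 7 probe sets, all above the floor, disagreed, at −0.23 to 0.18 untreated and −0.69 to 0.90 with IL-4.

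Slc36a1 (PAT1), which carries small amino acids with protons out of the lysosome, read 9.13 in WT and 10.55 on the untreated array labelled Dap12-KO, 2.67-fold higher, against 8.97 and 8.82 on the WT and Dap12-KO arrays with IL-4. The untreated array labelled Dap12-KO was thus above the other 3 arrays. After cyclic loess these 3 read 8.93 in WT untreated, 8.82 in WT with IL-4 and 9.39 on the narrower array, below its 10.45, and the difference between the IL-4 arrays turned from −0.15 to 0.58. Slc38a6 read 10.34 in WT and 11.35 on the array labelled Dap12-KO, 2.02-fold higher, and 10.24 and 10.53 with IL-4, a difference of 0.30, or 0.99 after cyclic loess. Slc38a7, a lysosomal exporter of glutamine and asparagine, read 9.40 and 9.997 untreated and 9.29 and 8.94 with IL-4, where its difference turned from −0.35 to 0.38 after cyclic loess. Slc38a9, a lysosomal carrier through which mTORC1 senses arginine, differed by 0.18 between the untreated arrays by its brightest probe set. Slc36a4, a carrier of proline and tryptophan, read 11.83 and 11.96 untreated and 11.47 and 10.99 with IL-4, where its difference turned from −0.47 to 0.15.

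The remaining bright members differed by less than 2-fold between the untreated arrays. Slc43a2 (LAT4), which lets branched-chain amino acids and other large neutral ones pass without sodium, read 12.03 and 12.92, and its other probe sets differed by 0.78 and 1.58. Slc6a8, the creatine carrier, read 11.79 and 12.39, and 11.45 and 11.44 with IL-4, but its second probe set differed by −0.15 untreated. Slc6a6, the taurine carrier, read 12.66 and 13.10 untreated and 12.64 and 12.22 with IL-4, where its difference turned from −0.43 to 0.11 after cyclic loess. Slc6a9 (GlyT1), a glycine carrier, read 8.09 and 7.96 untreated and 8.35 and 8.79 with IL-4, a difference of 0.44, or 1.07 after cyclic loess.

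**Figure D2:**
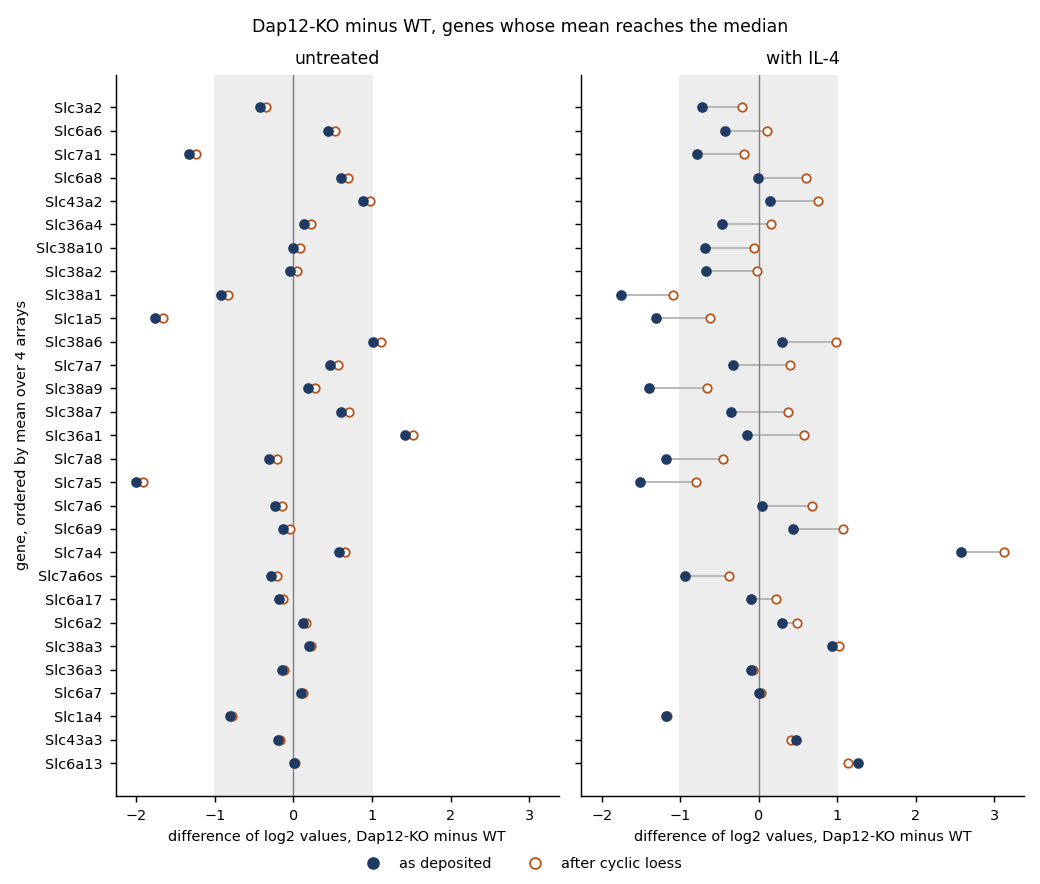
Difference of log2 values between the arrays labelled Dap12-KO and WT (x axis), untreated on the left and with IL-4 on the right, for the 29 genes whose mean reached the median of all values; filled points are deposited values, open points values after cyclic loess, and grey marks less than 2-fold. Untreated, Slc7a5, Slc1a5 and Slc7a1 lie beyond −1 and Slc36a1 and Slc38a6 beyond 1 by either scaling, while with IL-4 the scaling moves most bright genes upwards.

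Genes of amino acid synthesis and sensing were listed for comparison. Of 21 genes of the amino acid response above the floor, 6 were at least 2-fold lower and 0 higher on the untreated array labelled Dap12-KO, with a list median of −0.42 against 0.03 for all genes. They were the serine synthesis enzymes Psat1 (−2.05) and Psph (−1.14), asparagine synthetase Asns (−1.78), the proline synthesis enzyme Aldh18a1 (−1.31) and the mitochondrial folate enzymes Mthfd2 (−1.26) and Shmt2 (−1.05). Atf4 itself differed by −0.20, Ddit3 (CHOP) by 0.06 and Trib3 by −0.25. Of 14 glutamine and glutamate enzymes 4 were lower and 0 higher, led by Gpt2 (−2.34) and, shared with the first list, Psat1.

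Of 30 genes of mTORC1 amino acid sensing, 3 were higher and 0 lower, with a median of 0.18. They were the Rag GTPase Rragd (1.96), the stress-induced mTORC1 inhibitor Sesn1 (1.503) and folliculin Flcn (1.11). Among 16 other amino acid transporter genes, Slc17a5, the lysosomal sialic acid carrier, differed by 1.46. The 2 genes left out by the rule read lower, the cystine carrier Slc7a11 by −2.55 and the arginine carrier Slc7a2 by −1.20. The list counts are set against the same 3.12% of all genes higher and 3.41% lower.

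**Figure D3:**
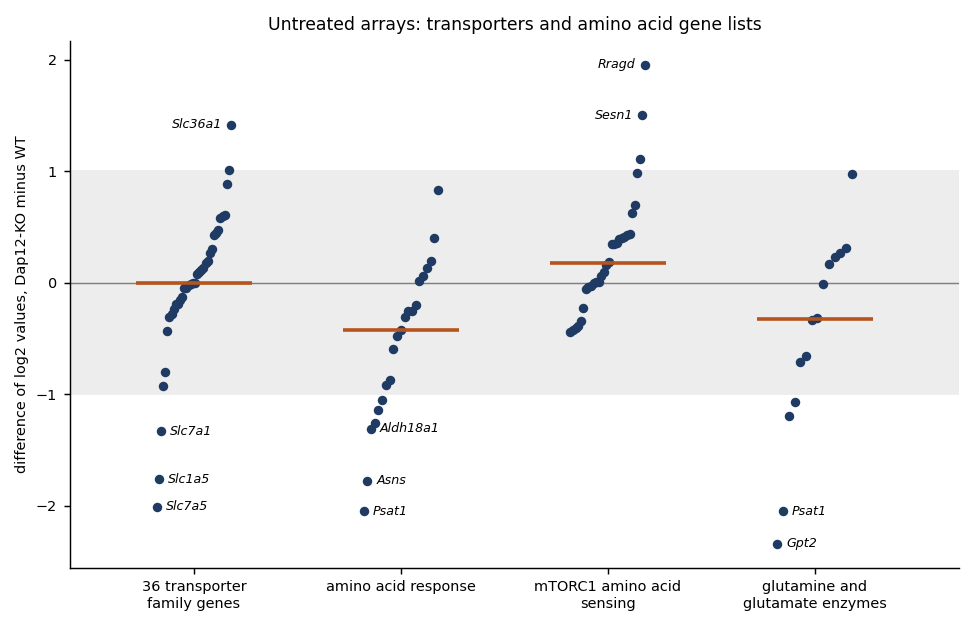
Difference of log2 values between the untreated arrays labelled Dap12-KO and WT (y axis) for the 36 transporter family genes and 3 lists of amino acid genes; each point is a gene above the floor, the bar is the median and grey marks less than 2-fold. Genes past 1.3 units are named, and the medians are −0.0006, −0.42, 0.18 and −0.32 from left to right. Psat1 stands in 2 lists.

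Some cell markers, of macrophages and of a few other cell types, differed in the untreated comparison. Of 6 resident cavity macrophage markers 3, Prg4, F5 and Ltbp1, were at least 2-fold higher there, while Timd4 differed by 0.23. Over all genes 3.12% were higher, a share that also stands beside the marker counts below. The summed level of the 6 was 12.01, 11.93, 13.15 and 12.36 (log2) on the WT untreated, WT IL-4, untreated Dap12-KO and IL-4 Dap12-KO arrays. This sum mostly follows its brightest marker, Prg4, which read 11.47, 11.28, 12.68 and 11.91 in that order. In the same order the 4 B cell markers measured summed to 9.93, 10.23, 10.80 and 10.13, with 1 of 4 at 2-fold and Pax5 below the floor untreated, and the 5 mast cell markers to 9.07, 8.89, 10.03 and 9.14, with 1 of 3 above the floor at 2-fold and Kit below it. Neutrophil, eosinophil, T and NK cell, and mesothelial and fibroblast markers had 0 at 2-fold higher untreated, and the fibroblast collagen Col3a1 was lower by −1.30. Mertk, a macrophage receptor for dying cells, differed by 1.97. S100a9, Prg2, Il5ra, Cd3d, Ncr1, Nkg7, Msln, Upk3b and Col1a1 were below the floor on all arrays. In such bulk RNA, fewer cells of a type and less RNA per cell cannot be told apart. The part of these cells in the transporter differences was not tested.

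In WT macrophages few amino acid transporters were past 2-fold with IL-4, as were few genes of any kind. Of the 36 members 1 was at least 2-fold higher and 1 lower (2.78% each, against 1.21% of all genes higher and 1.25% lower, 2.47% in either direction), and the other 34 lay between −0.70 and 0.39. The alternative activation genes served as a check of the treatment, and 7 of 8 were at least 2-fold higher, with Arg1 at 3.35. Slc7a2, left out by the rule, read 1.67 higher. The median member differed by −0.07 and the median gene by −0.03.

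Slc38a9 was the member higher with IL-4 in WT. It read 9.28 untreated and 10.59 with IL-4, 2.48-fold higher, and 9.46 and 9.19 on the untreated and treated arrays labelled Dap12-KO. The WT IL-4 array was the highest, also after cyclic loess, where the arrays in that order read 9.07, 10.42, 9.36 and 9.76. Each of its 7 probe sets read higher with IL-4 in WT, by 0.57 to 1.31, and on the arrays labelled Dap12-KO they differed by −0.27 to 0.11. Between the untreated arrays the probe sets disagreed, from −0.05 to 0.90. After cyclic loess the differences were 1.35 in WT and 0.41 on the arrays labelled Dap12-KO.

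Slc43a2 was the member lower with IL-4 in WT. It read 12.03 untreated and 10.73 with IL-4, 2.46-fold lower, and 12.92 and 10.87 on the untreated and IL-4 arrays labelled Dap12-KO. Both IL-4 arrays were thus below both untreated arrays. Its 3 probe sets differed by −1.30 to −0.74 in WT and by −2.52 to −2.04 on the arrays labelled Dap12-KO. After cyclic loess the differences were −1.26 and −1.48. Slc16a10, another sodium-independent carrier of large neutral amino acids and no member here, differed by −1.23 and −1.59, the latter −0.96 after cyclic loess. Slc43a3, of the same family as Slc43a2 but known as a carrier of purine bases, read 6.94 and 6.23 in WT and 6.74 and 6.71 on the arrays labelled Dap12-KO.

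The 3 carriers that were 2-fold lower in untreated cells labelled Dap12-KO differed by 0.39 (Slc1a5), 0.32 (Slc7a5) and 0.20 (Slc7a1) with IL-4 in WT. The 2 that were 2-fold higher, Slc36a1 and Slc38a6, differed by −0.16 and −0.10. Slc7a8 differed by −0.56, from 9.80 to 9.24. Slc3a2 differed by 0.03 and Slc6a6 by −0.02. The amino acid response genes had a median of 0.19 with 0 of 21 past 2-fold, and Chac1, Sesn2 and Trib3 were highest among them at 0.91, 0.83 and 0.80.

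On the arrays labelled Dap12-KO, 4 of the 36 members were at least 2-fold higher with IL-4 and 4 lower (8.04% and 17.6% of all genes, 25.7% in either direction). Cyclic loess gave 7 higher and 2 lower, against 9.79% and 5.91% of all genes. Quantile normalization gave 10 and 2 (11.8% and 8.73% of all genes), and median centring 3 and 7 (6.03% and 22.4%). With the floor set on the other 3 arrays it was 1 higher and 4 lower of 29. The share of all genes at that floor was not computed. The 4 lower members were Slc43a2, Slc36a1, Slc7a8 and Slc38a7. Slc36a1 read 10.55 untreated and 8.82 with IL-4, a difference of −1.73, or −1.06 after cyclic loess. Slc7a8 read 9.49 and 8.05, and Slc38a7 9.997 and 8.94, and their differences of −1.44 and −1.06 became −0.77 and −0.38 after cyclic loess. Rragd and Sesn1, higher with Slc36a1 on the untreated array labelled Dap12-KO, differed by −1.95 and −1.85 with IL-4 there, where the median gene differed by −0.40, and by −1.29 and −1.25 after cyclic loess.

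Slc7a5, Slc1a5 and Slc7a1 read higher with IL-4 on those arrays, by 0.82, 0.85 and 0.74, and by 1.48, 1.47 and 1.29 after cyclic loess. As deposited, the second probe set of Slc1a5 was also past 2-fold, at 1.09. The difference of the 2 IL-4 responses was 0.50, 0.46 and 0.55 as deposited for these genes and 1.12, 1.04 and 1.05 after cyclic loess. Slc6a9 was similar by its brightest probe set, at 7.96 and 8.79, with 0.83 as deposited and 1.42 after cyclic loess. Its dimmer probe set differed by 0.41 as deposited.

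Of the 4 members at least 2-fold higher with IL-4 there, Slc3a1, Slc1a3 and Slc6a13 were above the floor on that array alone. Slc3a1, the heavy chain of the renal cystine carrier, read 5.38 and 5.35 on the WT arrays, 5.68 on the untreated Dap12-KO array and 6.99 on the narrower array. Slc1a3 (GLAST), a glutamate carrier, read 6.05, 5.76, 6.01 and 7.19, and its other probe set above the floor differed by −0.60 on the arrays labelled Dap12-KO. Slc6a13 read 6.30, 6.07, 6.30 and 7.34. The fourth was Slc7a4, a relative of the cationic carriers with no settled substrate, which read 7.24, 7.17, 7.82 and 9.74. Its 2 probe sets above the floor disagreed, at 1.92 and −1.01, so its direction is uncertain.

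**Figure D4:**
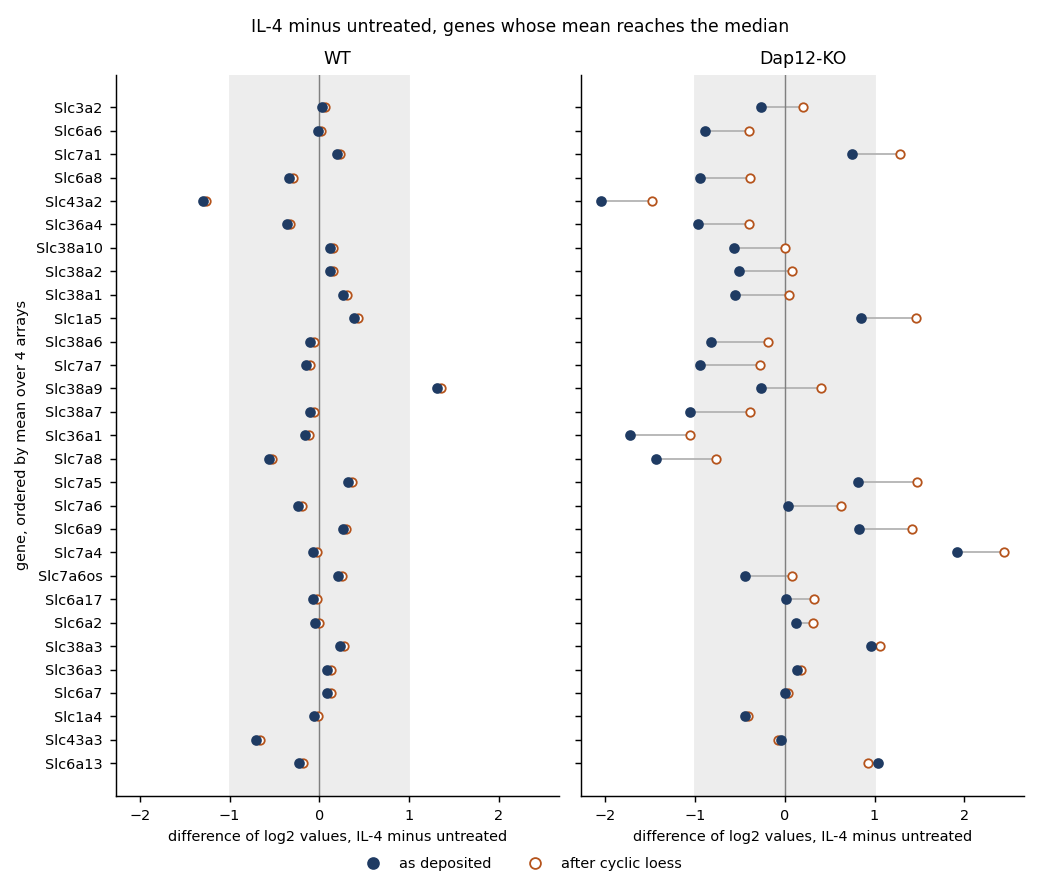
Difference of log2 values between IL-4 and untreated arrays (x axis), WT on the left and the arrays labelled Dap12-KO on the right, for the 29 genes whose mean reached the median of all values; filled points are deposited values, open points values after cyclic loess, and grey marks less than 2-fold. Slc43a2 lies beyond −1 in both panels by either scaling, and Slc38a9 lies beyond 1 only in WT.

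With IL-4, 7 members were at least 2-fold higher and 6 lower on the array labelled Dap12-KO than on the WT array (10.9% and 17.6% of all genes, 28.4% in either direction). Cyclic loess gave 8 and 2, against 12.6% and 5.33% of all genes. Quantile normalization gave 9 and 2 (14.2% and 7.9% of all genes), and median centring 7 and 7 (8.47% and 24.1%). It was 2 and 6 of 29 with the floor set on the other 3 arrays, without a share of all genes at that floor. Of these 2, Slc36a2 passed only by its 6.41 in untreated Dap12-KO cells, with both WT readings below. For this gene that floor was thus not neutral between genotypes. The other, Slc7a4, had 2 probe sets above the floor that disagreed, at 2.57 and −1.20. The 6 lower members were Slc38a1 (−1.75), Slc7a5 (−1.51), Slc38a9 (−1.39), Slc1a5 (−1.30), Slc1a4 (−1.19) and Slc7a8 (−1.18). After cyclic loess only Slc38a1, at −1.09, and Slc1a4, at −1.17, were past 2-fold. The difference of Slc7a5 was then −0.80, that of Slc1a5 −0.62 and that of Slc7a1 −0.19. Slc1a4 was below the floor on the narrower array, at 6.07. As deposited, its other probe sets differed by −0.76 and 0.05, the latter below the floor on all arrays. Of the 7 higher members, 5 were above the floor on the narrower array alone, and the others were Slc7a4 and Slc36a2, a proton-coupled carrier of small amino acids. Slc36a2 read 5.98, 5.80, 6.41 and 7.35 on the WT untreated, WT IL-4, untreated Dap12-KO and IL-4 Dap12-KO arrays. Slc1a7 and Slc1a1, both glutamate carriers, read 5.95, 5.85, 6.22 and 7.12, and 5.60, 5.30, 5.68 and 6.52, in the same order. All 4 comparisons share arrays, so their values are not independent.

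The IL-4 response on the arrays labelled Dap12-KO minus that in WT was at least 2-fold in the higher direction for 7 members and in the lower for 2 (8.15% and 14.8% of all genes, 23.0% in either direction). Of the 7, 5 were above the floor on the narrower array alone. With the floor set on the other 3 arrays the split was 2 and 2 of 29, without a share of all genes at that floor. Slc38a9 and Slc36a1 were the lower members, each at −1.57, and at −0.94 each after cyclic loess. For Slc38a9 the high array was WT with IL-4, and for Slc36a1 it was the untreated array labelled Dap12-KO. The 7 higher members were those higher between the IL-4 arrays.

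Several dim members varied little. Slc6a17, a vesicular carrier of neutral amino acids, read between 7.28 and 7.47 on the 4 arrays, and the noradrenaline carrier Slc6a2 between 6.97 and 7.27. The proline carrier Slc6a7 read between 6.73 and 6.82, and Slc36a3, of the proton-coupled family, between 6.70 and 6.94. Slc6a7 and Slc36a3 stayed near the floor, and none of these 4 had a group apart. Slc38a3, a glutamine carrier, did vary and read 6.52, 6.75, 6.72 and 7.68 on the WT untreated, WT IL-4, untreated Dap12-KO and IL-4 Dap12-KO arrays. Its differences on the narrower array, 0.97 with IL-4 and 0.93 between genotypes, were past 2-fold after cyclic loess, at 1.06 and 1.02. In the same order of arrays Slc1a2, a glutamate carrier best known from astrocytes, read 6.06, 5.88, 6.06 and 6.58, and the noncoding Slc36a1os 6.08, 5.88, 6.06 and 6.74. Slc7a6os, a protein-coding gene on the strand opposite Slc7a6, read 8.18, 8.39, 7.89 and 7.45. Whether signal of the partner on the other strand enters these probe sets was not tested.

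**Figure D5:**
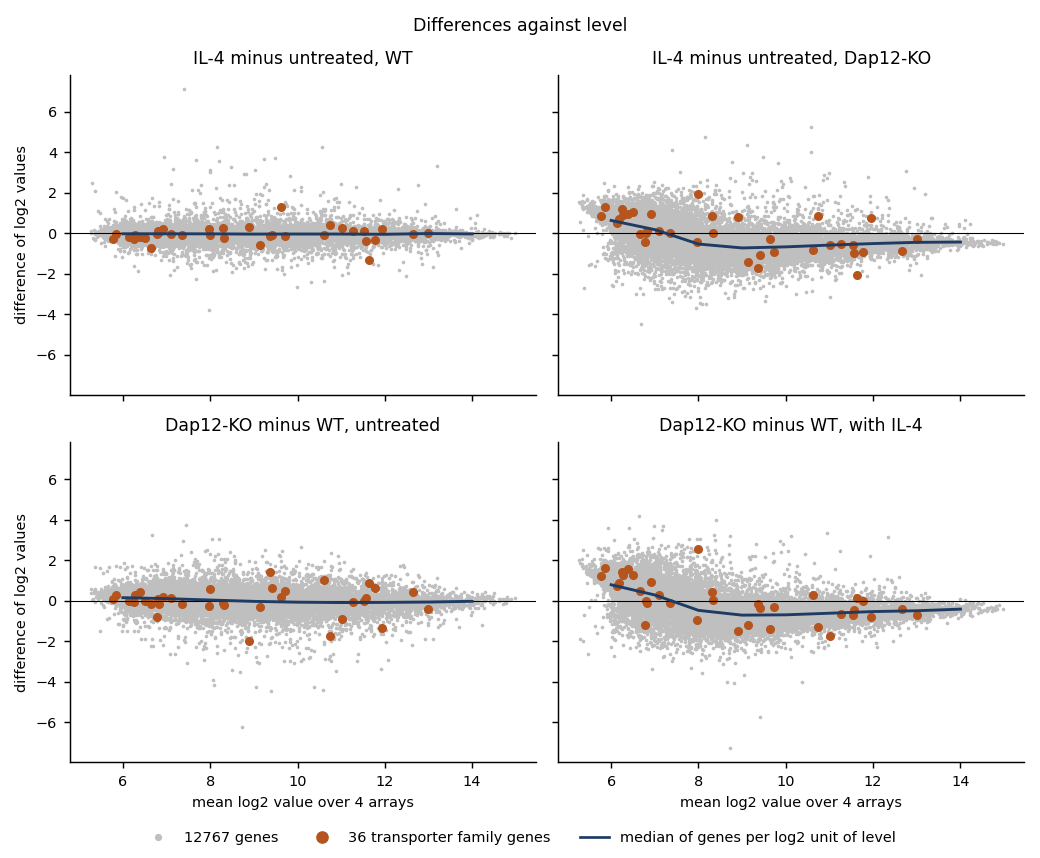
Difference of log2 values (y axis) against the mean over 4 arrays (x axis) for all 12767 genes above the floor (grey), the 36 transporter family genes (orange) and the median of genes per log2 unit of level (line), in 4 comparisons. The line is flat in WT and between untreated arrays, and in both comparisons that use the narrower array dim genes lie above 0 and most bright genes below.

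The 2 genotypes were the only repeats of IL-4, and a limma fit blocked on genotype, with 1 residual degree of freedom, was run over the 12767 genes. By it Slc43a2 fell by 1.67 (SE 0.42, adjusted p = 0.0085, limma), lower in 2 of 2 genotypes. It was the only one of 36 members called, where 0.540% of all genes were called as rising and 1.10% as falling. At an unadjusted p under 0.05, 4 members passed (11.1%, against 9.76% of all genes), the others being Slc7a8 (−0.9998), Slc36a1 (−0.94) and Slc7a4 (0.93). No member of the amino acid response, mTORC1 or glutamine lists was called, with 3 of 21, 2 of 30 and 2 of 14 at an unadjusted p under 0.05. The p-values rest on these 4 arrays only. Their spread is the difference between the 2 IL-4 responses, pooled over all genes, and the narrower array enters it. It is not a spread between replicate arrays. Every gene received the same SE, so the call follows the size of the difference. After cyclic loess the fit called 0 genes, and the adjusted p of Slc43a2 was 0.379.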

How the data were processed

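Total RNA of 4 macrophage samples was amplified in 2 cycles and hybridised to 1-colour arrays, per the labels' protocols. The authors deposited log2 values per probe set from RMA, a summary over probes, per the submitters' processing notes, where no version stands. The platform annotation gave 1 gene for 34945 of 45101 probe sets, several for 932, none for 9160, and marked 64 as controls. Symbols of 34741 were updated through Entrez identifiers to RefSeq (GRCm38.p6). Each gene took its single-gene probe set with the highest mean, and 30 of the 61 members had more than 1. Genes whose highest value lay under the median of all values were set aside. Scanner files were not used here, so detection is unknown.

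Log2 differences were taken between single arrays and counted at 2-fold. limma 3.58.1 (R 4.3.3) tested IL-4 with genotype blocked and Benjamini-Hochberg adjustment. On simulated data of 12767 genes, 50 changed per size, it found 6% of changes of size 1 (log2), 96% of size 2 and 100% of size 3 where all genes had equal spread, and 0%, 8% and 66% where spread differed between genes. False calls were 5 of 156 with equal spread and 12 of 94 with spread that differed. The simulated arrays held no narrower array, so these figures do not cover that feature of the data. Python 3.11.15, numpy 2.4.6, pandas 2.3.3 and matplotlib 3.10.9 did the rest.

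Any member above the floor could be named, with all 4 values for the 3 brightest of each family and for members at 2-fold, and up to 4 genes of each other list. Further list genes and markers, and the motifs, were chosen after values were seen. The members and lists were chosen with earlier results of these data known. Alternatives were other floors, a 3-fold threshold, cyclic loess (3 iterations), quantile normalization, median centring, the median over probe sets, each probe set alone, an intensity trend and no genotype term. Floors on 3 arrays or on the mean were added after the data had been seen.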

Additional observations from a re-analysis of the deposited data

Results flagged for a closer look

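For 8 members the IL-4 response had opposite signs in the 2 genotypes and differed by 2-fold or more, which singled them out, although with 1 array per group the difference was not tested. That is 22.2% of 36 members against 13.3% of all genes. With the floor set on the 3 arrays other than the narrower one it was 10.3% (3 of 29). The share of all genes at that floor was not computed, so the 10.3% has no match among all genes. The floor fixed a higher reading with IL-4 on the arrays labelled Dap12-KO for the 5 members that passed it on the narrower array alone. That reading enters the difference of responses, whose sign also rests on the WT arrays. The response on the arrays labelled Dap12-KO minus that in WT was −1.57 for Slc38a9, and −0.94 after cyclic loess. The same difference was 1.99 for Slc7a4, where the median over its probe sets gave −0.94. For dim carriers it was 1.004 for Slc1a7, 1.12 for Slc36a2, 1.15 for Slc1a1, 1.27 for Slc6a13, 1.33 for Slc3a1 and 1.48 for Slc1a3. All of these dim carriers but Slc36a2, which are those 5, reached the floor on a single array, that of treated cells labelled Dap12-KO. After cyclic loess the values of Slc1a7, Slc36a2 and Slc1a1 were 0.77, 0.92 and 0.87.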

How the results depend on the processing

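The 5 members past 2-fold between the untreated arrays and the 2 past it with IL-4 in WT kept their side after cyclic loess, as did 4 of 8 with IL-4 on the arrays labelled Dap12-KO, 8 of 13 between the IL-4 arrays and 4 of 9 for the difference of responses. At 3-fold the counts past the threshold were 0 for IL-4 in WT, 3 for IL-4 on the arrays labelled Dap12-KO, 2 between untreated arrays, 3 between IL-4 arrays and 1 for the difference of responses. With the 75th percentile as floor 21 members reached it, and the counts were 5 with IL-4 on the arrays labelled Dap12-KO, 6 between IL-4 arrays and 3 for the difference. With every probe set counted they were 6 for IL-4 in WT, 14 on the arrays labelled Dap12-KO, 8 between untreated arrays and 17 for the difference. By the median over probe sets they were 1 for IL-4 in WT and 8 between IL-4 arrays. With the floor set without the IL-4 array labelled Dap12-KO they were 5, 8 and 4 for IL-4 on the arrays labelled Dap12-KO, between IL-4 arrays and for the difference, and with a floor on the mean over 4 arrays 8 and 4 for the last 2. For the difference of responses the split of 7 higher and 2 lower was 8 and 0 by cyclic loess, 10 and 1 by quantile normalization and 5 and 5 by median centring. The shares of all genes were 8.9% and 5.6%, 11.4% and 7.9%, and 5.9% and 20.5% in the same order. Such shares were not computed for the other floors, the 3-fold threshold or the counts over probe sets. The limma fit called 0 members after cyclic loess, after quantile normalization, with no genotype term and with no level floor, and over all genes it called 0 in those settings but no genotype term, where it called 7, with 856, 602, 464 and 962 genes at an unadjusted p under 0.05. Slc43a2 was called with an intensity trend and by the median over probe sets, and its adjusted p over these alternatives (limma) ranged from 0.00207 to 0.728. Of 180 single differences 36 moved by over 1.5-fold after cyclic loess. Slc7a4 reversed by the median over probe sets, at −1.01 with IL-4 on the arrays labelled Dap12-KO, −0.40 between IL-4 arrays and −0.94 for the difference. The causes were not tested. No replicate could be left out, since each group holds 1 array. The fit blocked on genotype pairs treated with untreated arrays.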
